A study of Rattus norvegicus with 12 samples.

Results

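The genes described here encode the sarcomere, the contractile unit of heart muscle, with emphasis on its thin filament and its Z-disc. A set of 33 rat genes was named by symbol, and every probe set that the array annotation paired with exactly 1 of these symbols was taken. This gave 63 of 31042 probe sets and 31 of the 33 genes. Cardiac alpha-actin (Actc1) and nebulette (Nebl) had no such probe set and are without a value of their own. Each of the other genes is represented by its brightest probe set, the one with the highest mean over all arrays, and its further probe sets are given beside it.

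In a sarcomere, thick filaments of myosin pull on thin filaments of actin that are anchored in the Z-disc. Calcium binding to the troponin complex moves tropomyosin along the thin filament and lets myosin bind. Titin spans from the Z-disc to the middle of the thick filament, and desmin filaments tie neighbouring Z-discs together. Heart muscle mainly uses cardiac isoforms of these proteins, while other genes encode the slow and fast skeletal isoforms.

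Messenger RNA was measured in rat heart tissue with 1 array for each heart, in 6 failing and 6 control hearts, stated to be biological replicates. The study is about hypertrophy and heart failure in the spontaneously hypertensive rat, an inbred strain with high blood pressure. The labels name the groups by the words Failing and Control alone. Strain, age, sex and treatment of each group, the chamber sampled, and how failure was established are absent from the labels, so the groups cannot be tied to a strain or an age. The extraction protocol also names groups given captopril, and neither group label names this drug. One label calls the material a cell line and another calls it heart, and the bright cardiac transcripts below are those of heart muscle. A probe set is a group of short oligonucleotides read out as 1 value. Values are log2 of the deposited intensity, where a difference of 1 is a doubling, and differences are failing minus control ± SE from limma, n = 6 hearts in each group.

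Arrays had been brought to a common scale, with a trimmed mean intensity from 500.19 to 500.23 and median intensities from 120.8 to 144.2. Over all 31042 probe sets limma called none after Benjamini-Hochberg adjustment (0% called), with an adjusted p of 0.1 at the lowest and 4495 probe sets at an unadjusted p under 0.05. Among the 15521 brighter probe sets, those with a mean log2 intensity of at least 6.94, it called 429 higher (2.76%) and 230 lower (1.48%). Genes are said below to have risen or fallen when they passed an adjusted p of 0.05 among the brighter probe sets. Of the 63 sarcomere probe sets 45 were brighter, of which 2 were called higher and 0 lower. At an unadjusted p under 0.05 in the fit over all probe sets, 6 were higher and 1 lower, against 10.9% and 9.43% of all brighter probe sets. In 2 of the 45 every failing heart lay above every control heart, against 1.78% of all brighter probe sets. The shares called higher and not overlapping were thus near those of all probe sets. The median difference of the 45 was -0.04, and that of all brighter probe sets was 0.00 to 2 decimals. In whole heart tissue, fewer cells of a type and less RNA per cell cannot be told apart.

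The 2 calls were a second probe set of Pdlim5, a Z-disc adaptor protein, and Mybpc2, the fast skeletal form of myosin-binding protein C. Promoters of both are shown with that of Ldb3, whose 6 probe sets were all lower in sign, so that their sequence context can be read beside the values. The sequences are from RefSeq on GRCr8, each with 250 bases before and 50 after the annotated start, written 5' to 3' along the gene. The Pdlim5 window lies at chr2:233793427-233793726, the Mybpc2 window at chr1:104154052-104154351 and the Ldb3 window at chr16:9924630-9924929, all on the minus strand. Capitals in Mybpc2 mark a match to the MCAT motif CATTCC, which is read on the opposite strand, and capitals in Ldb3 mark a CArG box, the motif bound by serum response factor.
Pdlim5: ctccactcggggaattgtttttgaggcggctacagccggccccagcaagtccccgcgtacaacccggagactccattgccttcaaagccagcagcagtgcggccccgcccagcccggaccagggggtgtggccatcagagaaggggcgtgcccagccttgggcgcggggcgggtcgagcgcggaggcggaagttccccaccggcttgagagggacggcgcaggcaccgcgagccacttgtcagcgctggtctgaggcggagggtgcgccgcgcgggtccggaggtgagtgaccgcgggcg
Mybpc2: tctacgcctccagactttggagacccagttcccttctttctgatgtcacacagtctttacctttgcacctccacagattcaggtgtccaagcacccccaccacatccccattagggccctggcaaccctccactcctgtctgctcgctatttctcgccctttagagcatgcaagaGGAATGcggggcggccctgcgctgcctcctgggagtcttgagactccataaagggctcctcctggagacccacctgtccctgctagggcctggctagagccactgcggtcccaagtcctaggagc
Ldb3: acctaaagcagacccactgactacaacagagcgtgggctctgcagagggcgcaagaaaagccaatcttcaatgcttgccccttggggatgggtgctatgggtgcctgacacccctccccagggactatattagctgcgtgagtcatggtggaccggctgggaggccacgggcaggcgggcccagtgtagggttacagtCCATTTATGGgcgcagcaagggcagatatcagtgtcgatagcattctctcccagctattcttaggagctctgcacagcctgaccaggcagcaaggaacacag
The MCAT match of Mybpc2 lay at positions -75 to -70 from the start, and the CArG box of Ldb3 at -52 to -43. Of 33 genes, 25 had a window, with 28 windows among them, and both strands were searched. Members are counted by gene and the background by window, so the 2 shares are not of the same unit. CArG boxes were in 3 of the 25 genes (Actc1, Ldb3 and Nebl) and in 1.64% of all 33469 windows. MEF2 sites were in 6 (Mybpc3, Myoz1, Myoz2, Smpx, Synpo2l and Ttn), against 3.29% of all windows. MCAT was in 5 (Flnc, Mybpc2, Tnnt2, Tpm1 and Ttn), against 14.2%. The letters TATAAA were in 2 (Tnni2 and Tnnt1), also against 14.2%. These are matches of letters in 1 window a transcript start and say nothing of binding.

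**Figure D1:**
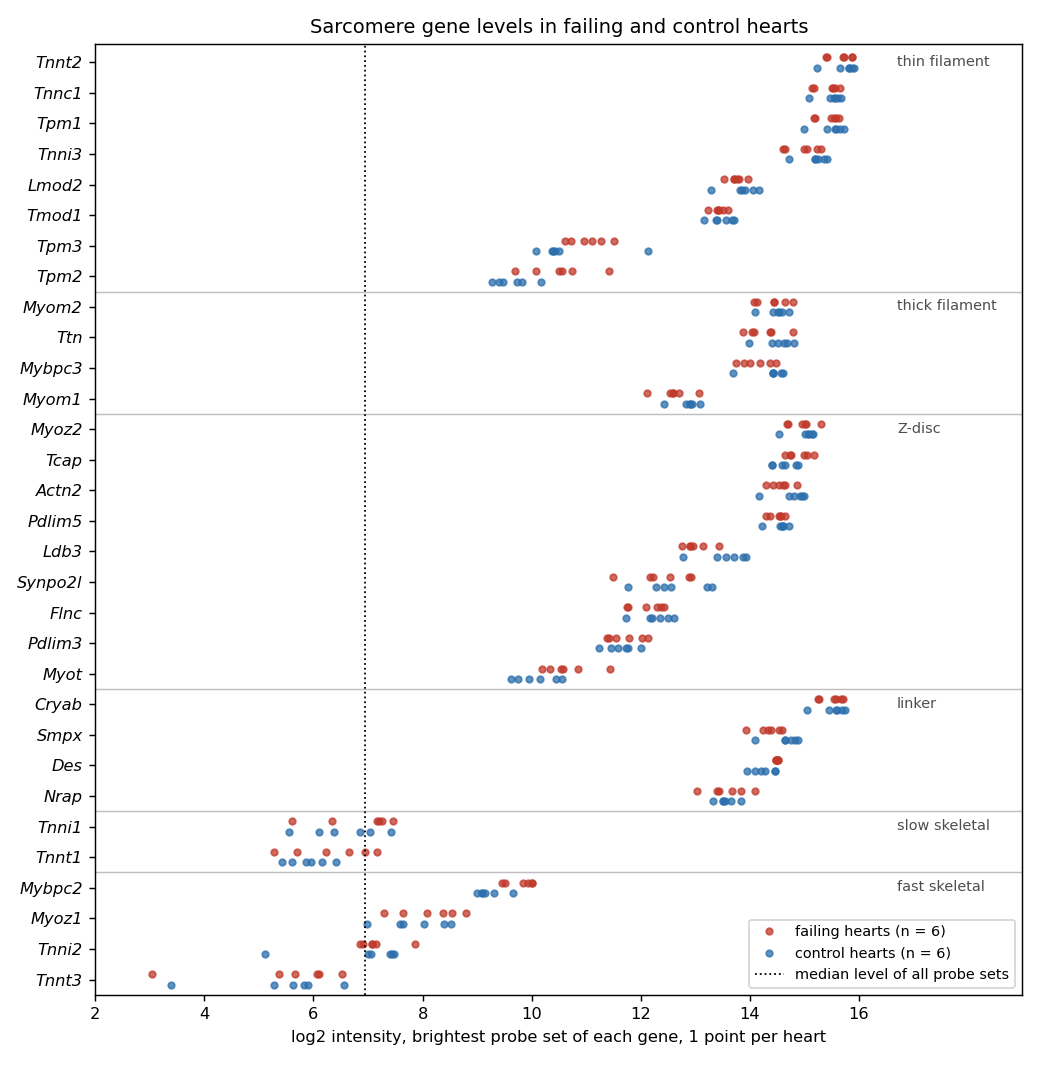
Log2 intensity of the brightest probe set of each of the 31 genes in the 6 failing and 6 control hearts, 1 point for each heart, genes grouped by role. Thin filament genes other than Tpm2 and Tpm3 have means between 13.46 and 15.69, the skeletal isoform genes have means below 10, and the groups overlap for all genes but desmin (Des).

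The main cardiac thin filament genes were among the brightest transcripts and were at similar levels in both groups. Cardiac troponin T (Tnnt2), which anchors troponin to tropomyosin, averaged 15.67 ± 0.21 (SD) in the failing group and 15.72 ± 0.25 in the control group. It differed by -0.05 ± 0.15, with a 95% interval of -0.38 to 0.28. Troponin C (Tnnc1), the calcium sensor, differed by -0.06 ± 0.14. Troponin I (Tnni3), the inhibitory subunit, differed by -0.21 ± 0.17, with adjusted p = 0.415 among the brighter probe sets by limma. Alpha-tropomyosin (Tpm1) differed by -0.05 ± 0.15. The 3 brightest Tpm1 probe sets gave from -0.05 to -0.04. The fourth, at 10.46, gave 0.49 ± 0.23 (unadjusted p = 0.0536), higher than every control heart in 2 of 6 failing hearts. The fifth, at 8.50, gave -0.33 ± 0.30, and 2 dim ones -0.18 ± 0.46 and 0.02 ± 0.88. Leiomodin 2 (Lmod2), which lengthens thin filaments, differed by -0.10 ± 0.15, and tropomodulin 1 (Tmod1), which caps their pointed ends, by -0.05 ± 0.12, with 0.13 for its second probe set. None of these genes was called. The interval of the fourth Tpm1 probe set reached 0.98. Intervals of the brightest probe sets reached from -0.58 (Tnni3) to 0.28 (Tnnt2 and Tpm1). For each probe set, changes within its own interval cannot be told from no change. Intensities this high lie near the top of the scale, which reached 16.29, and whether the signal still rises in proportion to RNA there was not tested.

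Beta- and gamma-tropomyosin, the less abundant tropomyosins of heart, were higher on average in failing hearts. Tpm2 (beta-tropomyosin) had its lowest, median and highest values at 9.70, 10.53 and 11.41 in failing hearts and at 9.28, 9.60 and 10.18 in control hearts. In 4 of 6 failing hearts it exceeded every control heart. The difference was 0.85 ± 0.27, or 1.80-fold, with limma adjusted p = 0.0621 among the brighter probe sets and 0.195 over all. It did not pass, but did without failing replicate 5, the lowest failing heart (1.01, adjusted p = 0.019), and with array weights, an intensity trend, a stricter filter or 1 probe set a gene (adjusted p from 0.0242 to 0.044). Over the fits without each heart the adjusted p ran from 0.019 to 0.127. Tpm2 is also a smooth muscle and fibroblast transcript. The summed level of 8 smooth muscle markers ran from 12.39 to 13.21 in failing and from 12.10 to 12.55 in control hearts, with 6 of 7 brighter markers higher in sign. Of these markers 0 were called higher and 1, smoothelin (Smtn), fell by 0.67. The summed level of 8 fibroblast markers ran from 15.62 to 16.71 against 15.38 to 16.07. All of these were higher in sign and 2 rose, decorin (Dcn, 0.50) and periostin (Postn, 1.31). The part of these cells in the Tpm2 difference was not tested.

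Tpm3 (gamma-tropomyosin, the slow skeletal form and also a cytoplasmic one) was covered by 12 probe sets, of which all 8 brighter ones were higher in sign, by 0.20 to 0.50. The brightest had its lowest, median and highest values at 10.62, 11.04 and 11.51 in failing and at 10.08, 10.41 and 12.13 in control hearts. The 12.13 belonged to control replicate 4, which lay above all 6 failing hearts, while the next control heart was at 10.50. The difference was 0.38 ± 0.32 (limma adjusted p = 0.435). Without control replicate 4 it was 0.68 ± 0.17, with adjusted p = 0.0198 among the brighter probe sets and 0.0921 over all. In the other 11 fits that leave out a heart it did not pass (limma adjusted p from 0.344 to 0.643). The dimmest of the 8, at 7.13, gave 0.44 ± 0.17 (unadjusted p = 0.0269, adjusted p = 0.114). Of the 8, 4 are of the kinds of probe set that can match related sequences, so they may share signal with each other and with other tropomyosins. Of the 4 dimmer Tpm3 probe sets, 1 gave -0.49 ± 0.22 (unadjusted p = 0.0432, adjusted p = 0.326 over all).

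**Figure D2:**
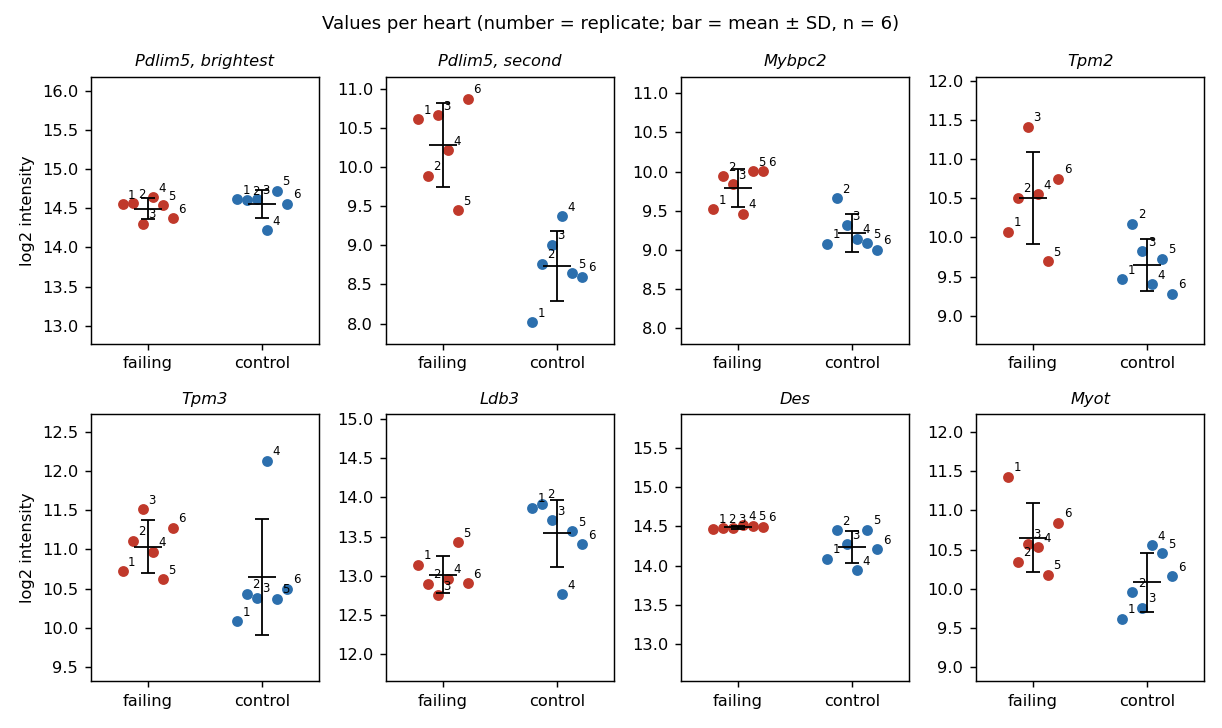
Log2 intensity by heart for 8 probe sets, each point labelled by its replicate number, with the group mean and SD. The second Pdlim5 probe set and desmin (Des) do not overlap between groups, and control replicate 4 lies above all others for Tpm3 and below the other controls for Ldb3.

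The 4 genes grouped here under the thick filament and its M-band were all lower in sign by small amounts, and none was called. Myosin genes are not among them, and the fast skeletal Mybpc2 is given below. Titin (Ttn) differed by -0.25 ± 0.19 and cardiac myosin-binding protein C (Mybpc3), which restrains myosin heads, by -0.24 ± 0.19. The M-band proteins myomesin 1 (Myom1) and myomesin 2 (Myom2), which hold thick filaments in register, differed by -0.25 ± 0.17 and -0.06 ± 0.16. Limma adjusted p among the brighter probe sets ran from 0.325 to 0.839 over these 4.

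In the Z-disc, 1 probe set of Pdlim5 was the clearest difference of all 63. Pdlim5 (ENH) is a PDZ and LIM domain protein that binds alpha-actinin and protein kinase C, and alternative splicing makes long forms with LIM domains and short ones without. The second probe set had values of 10.61, 9.89, 10.66, 10.21, 9.45 and 10.87 in failing replicates 1 to 6 and of 8.02, 8.76, 9.01, 9.37, 8.64 and 8.60 in control replicates 1 to 6. Every failing heart lay above every control heart. It rose by 1.55 ± 0.28 (95% interval from 0.94 to 2.16), or 2.92-fold, with limma adjusted p = 0.017 among the brighter probe sets and 0.105 over all. The call ended without control replicate 6 (adjusted p = 0.052), and over all such fits the adjusted p ran from 0.00343 to 0.052. It also ended with the filter at the 25th percentile (adjusted p = 0.0599) and with an exact rank-sum permutation test (adjusted p = 0.0825), under which no probe set of the array was called.

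The brightest Pdlim5 probe set did not share this difference. Its lowest, median and highest values were 14.30, 14.54 and 14.64 in failing and 14.22, 14.61 and 14.72 in control hearts, and it differed by -0.06 ± 0.12. Within each heart the second probe set lay below the brightest, by a log2 difference of -4.21 ± 0.62 in failing and -5.82 ± 0.58 in control hearts (SD). This difference was at least -5.09 in every failing heart and was at most -4.84 in every control heart, so the ranges overlapped slightly, and as the pair was seen in these data it is given with no test. The annotation pairs the second probe set with a RefSeq transcript of Pdlim5 and the other 3 with GenBank sequences. Which exons each reads is not given in the tables used here, so the values are not assigned to a splice form. The third probe set, at 5.88, gave -0.69 ± 0.33 and the fourth, at 4.51, gave 1.23 ± 0.87, both dim.

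Ldb3 (ZASP or Cypher), which ties alpha-actinin to protein kinase C at the Z-disc, was lower in sign in all 6 of its probe sets. Its brightest probe set had lowest, median and highest values of 12.75, 12.93 and 13.43 in failing and of 12.77, 13.64 and 13.92 in control hearts. The lowest control value was that of control replicate 4, and only 1 failing heart lay below it. The difference was -0.53 ± 0.20, or 0.69-fold, with limma unadjusted p = 0.0239 and adjusted p = 0.107 among the brighter probe sets. It did not pass. Without control replicate 4 the difference was -0.68 ± 0.15, with adjusted p = 0.0152 among the brighter probe sets and 0.0818 over all. In the other 11 fits that leave out a heart it did not pass (limma adjusted p from 0.0583 to 0.209). With array weights the difference was -0.60 (adjusted p = 0.016). The next 3 probe sets, between 12.52 and 13.17, gave -0.25, -0.44 and -0.52.

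Myotilin (Myot), which cross-links actin at the Z-disc, was at 10.18, 10.55 and 11.43 (lowest, median and highest) in failing and 9.62, 10.06 and 10.55 in control hearts. In 3 of 6 failing hearts it exceeded every control heart. The difference of 0.57 ± 0.24 (1.48-fold) did not pass (limma unadjusted p = 0.0328, adjusted p = 0.127), nor without any 1 heart (adjusted p from 0.0596 to 0.246). Telethonin (Tcap), which caps titin at the Z-disc, differed by 0.26 ± 0.14 (adjusted p = 0.231). Alpha-actinin 2 (Actn2), the main Z-disc cross-linker, differed by -0.20 ± 0.16, calsarcin 1 (Myoz2), a calcineurin-binding protein, by -0.05 ± 0.15, Synpo2l by -0.22 ± 0.31 and Pdlim3, an alpha-actinin binding protein, by 0.09 ± 0.18. Filamin C (Flnc), an actin cross-linker, gave -0.15 ± 0.18 at its brightest probe set and 0.55 ± 0.29 (adjusted p = 0.216) at its second. That second probe set ran over 10.56, 10.93 and 11.25 in failing and 9.43, 10.64 and 10.97 in control hearts, lowest, median and highest. The groups overlapped, with 2 failing hearts above every control heart.

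Among the linkers between myofibrils, desmin (Des), the muscle intermediate filament, did not overlap between groups. Its values were 14.47, 14.49 and 14.52 in failing and 13.94, 14.24 and 14.46 in control hearts, lowest, median and highest. The failing hearts spread by an SD of 0.019, against 0.20 in control hearts. The difference was 0.25 ± 0.11, or 1.19-fold (limma unadjusted p = 0.047, adjusted p = 0.155), and did not pass, nor without any 1 heart (adjusted p from 0.136 to 0.28). Without control replicate 4, the lowest control heart, it was 0.19 ± 0.10. Alpha-B-crystallin (Cryab), a chaperone of desmin and titin, differed by -0.01 ± 0.15, the costamere protein Smpx by -0.30 ± 0.16 (adjusted p = 0.222) and Nrap, which acts in myofibril assembly, by 0.02 ± 0.18.

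**Figure D3:**
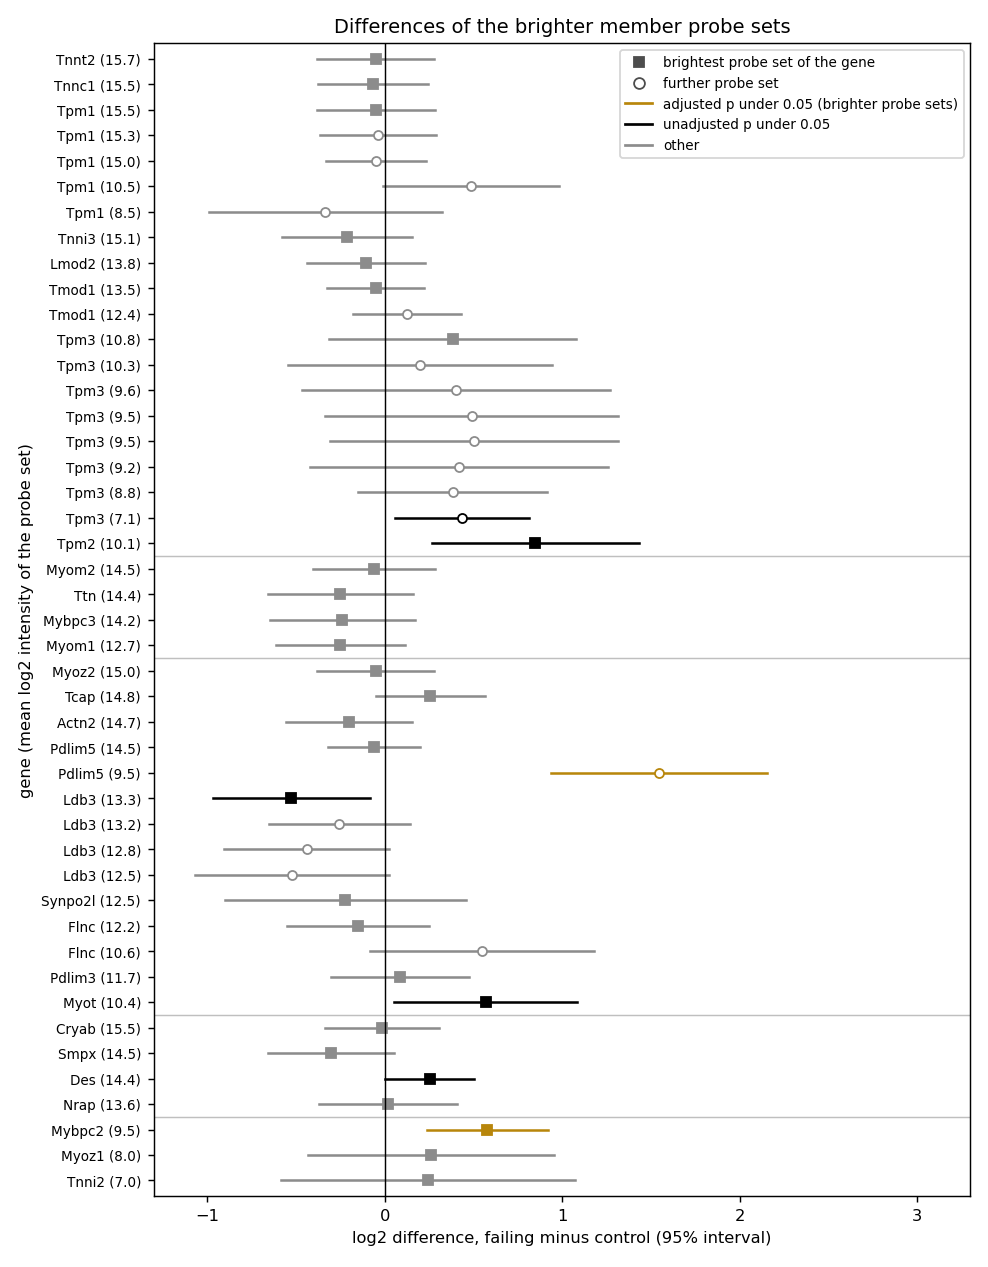
Log2 difference, failing minus control, with its 95% interval from the fit over all probe sets, for the 45 brighter probe sets, labelled by gene and mean log2 intensity and grouped by role. Squares are the brightest probe set of a gene and circles its further ones, and only the second Pdlim5 probe set (1.55) and Mybpc2 (0.58) passed the adjusted threshold.

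Of the genes named for skeletal muscle, Mybpc2 was the one that rose. Its values were 9.519, 9.942, 9.841, 9.461, 10.005 and 10.004 in failing replicates 1 to 6 and 9.082, 9.664, 9.315, 9.144, 9.085 and 9.004 in control replicates 1 to 6. In 4 of 6 failing hearts it exceeded every control heart, and control replicate 2 lay above the other 2. The difference was 0.58 ± 0.16 (95% interval from 0.24 to 0.92), or 1.49-fold, with limma adjusted p = 0.042 among the brighter probe sets and 0.16 over all. The call ended without any 1 of 8 hearts (failing replicates 2, 3, 4 or 6 or control replicates 1, 3, 5 or 6, adjusted p from 0.0588 to 0.0974). It also ended with the filter at the 25th percentile (0.1), the mean of both probe sets (0.272), the exact rank-sum permutation test (0.109) and the replicate number as a block (0.0636), all adjusted p. A second, dim probe set gave 0.42 ± 0.50, and dim second probe sets of Tnnt2 and Tpm2 gave 0.31 ± 0.41 and 0.33 ± 0.48.

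The other skeletal isoforms were not called, and all but Tnni2 (7.03) and Myoz1 (7.99) were below the filter. Slow troponin I (Tnni1), the fetal form in heart, averaged 6.84 ± 0.72 (SD) in the failing group and 6.56 ± 0.68 in the control group, and differed by 0.28 ± 0.38. Slow troponin T (Tnnt1) differed by 0.43 ± 0.32, fast troponin T (Tnnt3) by 0.03 ± 0.63, fast troponin I (Tnni2) by 0.25 ± 0.38 and calsarcin 2 (Myoz1) by 0.26 ± 0.32. Second probe sets of Tnni1, at 6.31, and Tnnt3, at 5.25, gave 0.54 ± 0.59 and 0.54 ± 0.58. Of 11 markers of skeletal muscle fibres, 10 were measured and 8 of these lay between 2.78 and 5.76, below the filter. The other two were Myh1 (13.77, -1.16 ± 0.45) and Casq1 (9.87, -0.48 ± 0.31), both lower in sign, whereas 6 of the 8 dim ones were higher in sign, with unadjusted p from 0.103 to 0.748 over the 8 by limma. The Myh1 probe set is of a kind that can match related sequences. It carries the summed level of the list, which ran from 12.24 to 14.42 in failing and from 13.08 to 14.95 in control hearts. The part of skeletal muscle markers in the Mybpc2 difference was not tested.

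Minor isoforms were also set against the main cardiac isoform within each heart, for 4 pairs, with an exact two-sided permutation test over 924 arrangements of 6 and 6 and adjustment over the pairs. Tpm2 minus Tpm1 was higher by 0.90 in the failing group, with an exact permutation p of 0.0173 and an adjusted p of 0.0693. Without failing replicate 5, the failing heart lowest for this pair, the adjusted p was 0.00866. Without any other 1 heart the pair did not pass (adjusted p from 0.0519 to 0.165). Tpm3 minus Tpm1 was higher by 0.43 (exact permutation p = 0.374, adjusted p = 0.374), and by 0.83 without control replicate 4 (adjusted p = 0.0433). Without any other 1 heart its adjusted p ran from 0.325 to 0.606. Slow against cardiac troponin I differed by 0.49 (exact permutation p = 0.232) and slow against cardiac troponin T by 0.48 (exact permutation p = 0.206), each with adjusted p = 0.309. None of the 4 passed with all hearts. Tnni1 and Tnnt1 lay below the filter, and the main isoforms lie near the top of the scale, where proportionality was not tested.

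Signs of the brightest probe set of each gene were split by level. Of the 21 genes with a mean of at least 12, 18 were lower in sign, 4 of which (Tpm1, Tmod1, Myoz2 and Cryab) turned higher with quantile normalization, and the median difference was -0.06. Of all 1140 probe sets at that level 56.3% were lower in sign, with a median of -0.04. All 10 genes below 12 were higher in sign, with a median of 0.33. Of these, 7 were brighter, where 49.6% of probe sets below 12 were lower in sign, and 3 were dimmer, where 55.1% were. Further probe sets below 12 did not all go this way, as Tpm1 at 8.50 (-0.33) and Tpm3 at 6.81 (-0.49) were lower. Of the 32 further probe sets at any level, 11 were lower and 21 higher in sign. Single genes at these levels did not pass, except Mybpc2, and the signs of genes that vary together in the same hearts are not independent.

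The brightest genes varied together from heart to heart. Control replicate 4 was the lowest control heart in 20 of the 21 genes with a mean of at least 12 and the lowest of all 12 hearts in 13 of them. Its median deviation from the gene means was -0.42. Failing replicates 3 and 6 followed, at -0.32 and -0.25, and failing replicate 3 was the lowest failing heart in 14 genes. The other 9 hearts lay between -0.02 and 0.24. Control replicate 4 was also the lowest heart in the summed level of 10 heart muscle markers outside the sarcomere, at 17.79. The lowest failing heart was close to it, at 17.81, and the other control hearts were at 18.29 or above. The 3' minus 5' difference of control transcripts, an RNA quality measure that grows as 5' signal is lost, was 0.36 in control replicate 4. This was the lowest of the 12, with the others from 0.44 to 0.78, so by this measure it had the least such loss. Whether the heart, the piece of tissue or the array set it apart was not tested.

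**Figure D4:**
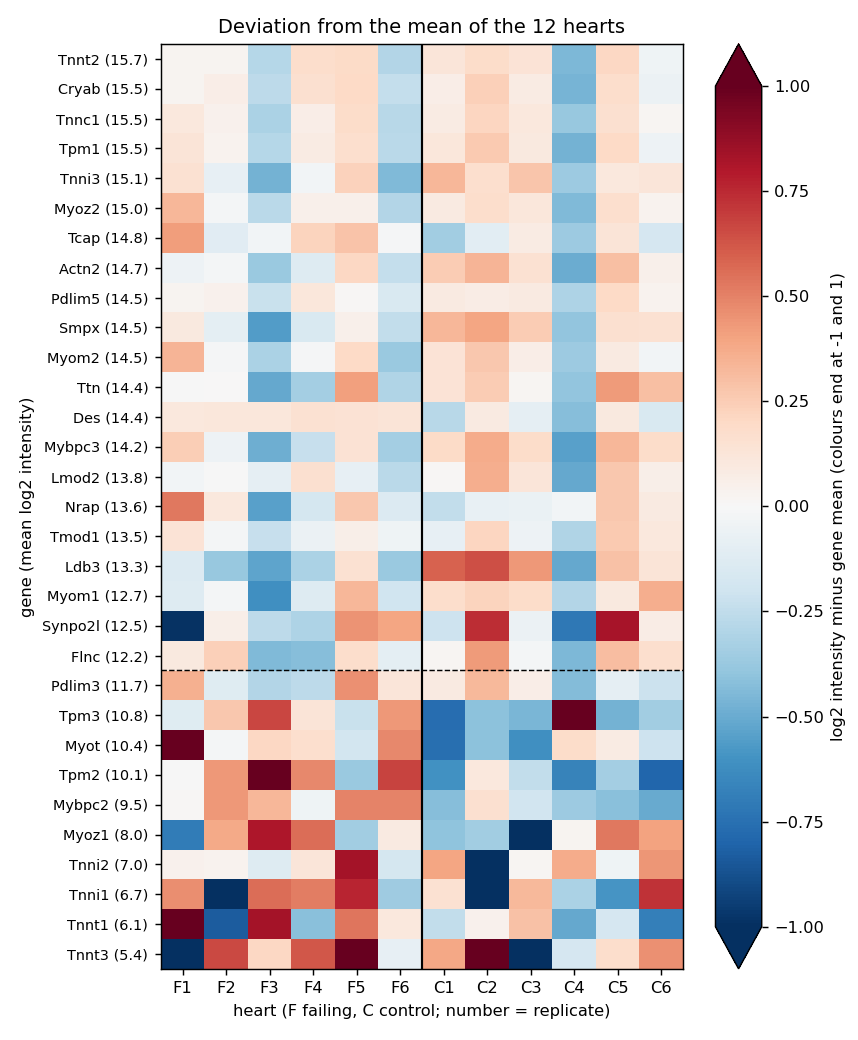
Deviation of each heart from the mean of the gene over all 12 hearts (log2), for 31 genes ordered by mean level, with failing hearts F1 to F6 and control hearts C1 to C6; the dashed line marks a mean of 12. The column of control replicate 4 is low for the genes with a mean of at least 12 (median -0.42) and high for Tpm3.

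Leaving this heart out changed the number of sarcomere calls more than leaving out any other. Without it, 46 sarcomere probe sets were brighter, of which 8 were called higher and 2 lower, while 6.65% of all brighter probe sets were called higher and 6.74% lower. The 8 higher were 6 probe sets of Tpm3, the second of Pdlim5 (1.67, adjusted p = 0.00866) and Mybpc2 (0.57, adjusted p = 0.031). The 2 lower were Ldb3 and Smpx (-0.41, adjusted p = 0.0461). Over all probe sets 0 of the 63 were called without it. Without failing replicate 5, 4 were called higher (5.19% of all brighter probe sets), among them Tpm2 and the eighth Tpm3 probe set (0.54, adjusted p = 0.0384). Without control replicate 6 none was (0.129% of all brighter probe sets).

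Other genes of the same structures were counted from 4 lists of 92 symbols, of which 82 were measured and 73 were brighter. Of these, 4 were called higher (background 2.76%) and 0 lower (1.48%), and the median difference was 0.01. Among 21 brighter genes of other sarcomere proteins, the non-muscle alpha-actinin Actn1 rose by 0.91 ± 0.24 (limma adjusted p = 0.0419), and 0 fell. Among 15 LIM and other Z-disc genes, Pdlim2, a relative of Pdlim5, rose by 1.13 ± 0.29 (adjusted p = 0.0398) and synaptopodin (Synpo), an actin-bundling protein, by 0.99 ± 0.26 (adjusted p = 0.0406). Among 22 genes of the intercalated disc and costamere none was called, and desmoglein 2 (Dsg2), a desmosomal cadherin, had the smallest p (0.47 ± 0.20, adjusted p = 0.127). Among 15 genes of sarcomere chaperones and turnover, Dnajb6, a co-chaperone of the Z-disc, rose by 0.49 ± 0.12 (adjusted p = 0.038). Each of the 4 calls ended without any 1 of 9 or 10 hearts, with adjusted p up to 0.0965. Actn1, Pdlim2 and Synpo are also made outside heart muscle cells. The smooth muscle and fibroblast sums given above had higher lowest and highest values in failing hearts, but their ranges overlapped between groups. Of the called markers in these sums Dcn and Postn rose and Smtn fell. The part of smooth muscle cells and fibroblasts in these differences was not tested.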

How the data were processed

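Total RNA of 12 rat hearts was hybridised to 1-colour arrays. The authors deposited 1 table of intensity values, linear, from 0.1 to 79913.6. RMA is named, without a version, in the submitters' processing notes, but the deposited linear values with a common mean after trimming 2% at each end are not usual RMA output, so the summary method is unknown. Such scaling hides a shift of most genes. No detection calls, dates or batches were used. The number of arrays limits the precision.

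Values were log2-transformed without an offset, and 57 control probe sets were left out. The annotation paired 20826 probe sets with 1 symbol, 436 with several and 9780 with none, and names came from single symbols. All 63 gene identifiers matched RefSeq (GRCr8). Hearts were grouped by title. Groups were compared with limma 3.58.1 (lmFit, then eBayes, no covariate) in R 4.3.3, two-sided, with Benjamini-Hochberg adjustment at 0.05, once over all probe sets and once refitted over the brighter ones (mean at or above the median, an intensity of 123). Differences, SEs, intervals and unadjusted p are from the fit over all. The fits were tested on simulated data with independent noise for each probe set. Genes that vary together were not simulated.

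Members, lists and tests were chosen with earlier results of these data known. All members are named. Values by heart, or the lowest, median and highest, are given for probe sets called. They are also given for genes whose brightest probe set had an unadjusted p under 0.05 or differed by at least 0.5. The second Flnc probe set was added after its values were seen. From each list at most 2 called genes a direction are named, or else the gene of smallest p. Tpm3 and Tpm1 further probe sets and marker genes were named after their values were seen. Alternatives covered array weights, an intensity trend in the variance, quantile normalization, an offset of 32, median centring, other filters, the probe set used, an exact rank-sum permutation test, an RNA quality covariate, the replicate number as a block and leaving out each heart. Figures used matplotlib 3.10.9.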

Additional observations from a re-analysis of the deposited data

Results flagged for a closer look

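In 94 groups of 6 hearts that were checked, 15 had a highest or lowest heart set far apart from the others, where chance gives about 1 in 20 groups, or 4.7. Genes share hearts, so these are not independent. Control replicate 4 accounts for 11 of the 15. It was low for cardiac troponin I (Tnni3, 14.72), troponin C (Tnnc1, 15.08), Mybpc3 (13.70), Actn2 (14.17), Myoz2 (14.53), the brightest Pdlim5 probe set (14.22) and Smpx (14.10), all log2 intensities. It was high for Tpm3 (12.13), the fourth Tpm1 probe set (10.71), Pdlim2 (8.95) and the difference of Tpm3 minus Tpm1 (-2.85, next -4.91). The other 4 were fast troponin T (Tnnt3) low in failing replicate 1 (3.04), fast troponin I (Tnni2) high in failing replicate 5 (7.87) and low in control replicate 2 (5.11), and Dsg2 high in failing replicate 1 (12.50).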

How the results depend on the processing

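Differences of 43 described probe sets were recomputed under each alternative. Apart from leaving out hearts, 457 of 495 values kept their direction and their side of the threshold, 20 lost a call, 9 gained one and 9 changed sign. Of the 43, only 2 sarcomere probe sets and 4 genes of the further lists were called at first, so only these could lose a call. Most values that kept their side were of probe sets that stayed uncalled. The 9 that changed sign were Nrap with array weights (-0.022), and Tpm1 (0.023), Tmod1 (0.0059), Myoz2 (0.058) and Cryab (0.021) with quantile normalization. The rest were Tnnt2 (0.13), Tmod1 (0.039), Pdlim5 (0.51) and Flnc (0.20) with the mean of all probe sets of a gene. The cause was not tested.

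Sarcomere probe sets called among the brighter ones numbered 2 higher and 0 lower. They numbered 5 and 3 with array weights (all probe sets 1203 and 1067), 0 higher with the mean of probe sets (all genes 316 higher and 200 lower), 0 with the rank-sum test and 0 with the filter at the 25th percentile, and 1 was lower with the RNA quality covariate (all probe sets 554 and 309). The rank-sum test and the 25th percentile filter called 0 of all probe sets and 0 of the genes in the 4 further lists in either direction. A rank-sum p cannot go under 0.00216. Over all probe sets 2 members were called higher with an intensity trend (all probe sets 380 higher and 186 lower) and 1 with an offset of 32 (35 and 11). All brighter probe sets called lower were 419 with the trend, 136 with median centring and 407 with the filter at the 75th percentile. Genes of the 4 further lists called lower numbered 4 with array weights and 1 with the trend, with the 75th percentile or with 1 probe set a gene.

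With the replicate number as a block, 1 member was called, the second Pdlim5 probe set (adjusted p = 0.0351), Mybpc2 was at adjusted p = 0.0636, 0 genes of the further lists were called higher, and all brighter calls were 222 higher and 59 lower. Hearts share only a number. Deviations of hearts of the same number correlated from -0.06 to 0.23, 1 of 6 over 0.1, and 2 of 6 pairs correlated best with their own number.

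Over the 12 fits that leave out a heart, members called ranged from 0 to 8 higher and from 0 to 2 lower among the brighter probe sets, and from 0 to 1 higher over all. The further lists ranged from 0 to 5 in each direction, all brighter probe sets from 20 to 1032 higher and from 4 to 1046 lower, and all probe sets from 0 to 120 higher and from 0 to 40 lower. The isoform differences ranged from 0.29 to 0.83 for Tpm3 minus Tpm1, from 0.66 to 1.10 for Tpm2 minus Tpm1, from 0.28 to 0.75 for Tnni1 minus Tnni3 and from 0.30 to 0.70 for Tnnt1 minus Tnnt2. Differences that changed sign in some of these fits ranged from -0.15 to 0.0024 for Tnnt2, from -0.15 to 0.0026 for Tpm1, from -0.14 to 0.011 for Myom2, from -0.14 to 0.0037 for Myoz2, from -0.11 to 0.037 for Cryab, from -0.087 to 0.13 for Nrap, from -0.38 to 0.51 for Tnnt3 and from -0.11 to 0.36 for Tnni2. Dim probe sets spread widely, with a median residual SD of 1.08 against 0.28 among the brighter.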

Other observations

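Cardiac alpha-actin, the main actin of the thin filament, was covered by 5 probe sets that the annotation pairs with both Acta2, the smooth muscle actin, and Actc1, so their values belong to neither gene alone. The brightest averaged 15.62 ± 0.22 (SD, log2) in the failing group and 15.61 ± 0.24 in the control group, and differed by 0.0044 ± 0.15. The next 3, between 14.89 and 15.17, gave -0.08, -0.12 and -0.09. The dim one, at 6.49, gave -1.12 ± 0.39 and did not pass (limma adjusted p = 0.231).

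Markers of other cells were counted beside the sarcomere genes. Of 6 brighter endothelial markers 1 rose (Vwf, 1.10) and 1 fell (Emcn, -0.78). Of 6 brighter macrophage markers 1 rose (Mrc1, 1.03) and 1 was lower in sign (Adgre1, -0.58 ± 0.47, not called). The summed level of the 7 measured ran from 11.70 to 13.02 in failing and from 11.44 to 12.18 in control hearts. Control replicate 4 was the highest control heart. All 10 measured heart muscle markers outside the sarcomere were lower in sign, with a median of -0.16 and 0 called. All 5 measured atrial markers were higher in sign with 0 called, and their summed level ran from 10.72 to 12.86 in failing and from 10.06 to 14.22 in control hearts.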
